A study of Saccharomyces cerevisiae with 6 samples.

Results

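SFA1, YJL068C and FDH1 encode enzymes of the native route by which Saccharomyces cerevisiae oxidizes formaldehyde to carbon dioxide. They were taken by name from the count table and are 3 of its 6400 named genes. RNA was sequenced from 3 cultures of CX01F, an evolved strain, and from 3 cultures of CX01, its parent, to ask how metabolism was rearranged for growth on methanol. After growth overnight in rich YPD medium the cultures spent 16 h in Delft medium, which is minimal and defined. The last medium was Delft with 1% methanol and no glucose. They were kept at 30 °C and 200 rpm and collected at an OD600 near 1.0.

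Both strains carry the same source label, so its genetic entries are shared by the controls. The label lists P. Paox1-SKL, P. Pdas1-skl and P. pDAK, together with P. sXR, P. sXDH and P. sXK. It also lists P. pPYC, B. mMDH3-skl and B. mACT1-skl, next to S.c MDH2, S. cMDH3, S. Cnde1 and PEX5. The entries ∆PEX31 and ∆PEX32 are marked as deletions. The labels name no background strain and no mutation of CX01F, and do not say whether CX01F is a clone or a population. No row for an entry with a P. or B. prefix was analysed here, and the values below are those of rows with S. cerevisiae gene names.

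Formaldehyde is the first product of methanol oxidation and is toxic. It reacts with glutathione, and Sfa1, a glutathione-dependent formaldehyde dehydrogenase of the class III alcohol dehydrogenases, oxidizes the adduct to S-formylglutathione. The S-formylglutathione hydrolase encoded by YJL068C releases formate and returns the glutathione, and the NAD-dependent formate dehydrogenase Fdh1 oxidizes formate to carbon dioxide. In methylotrophic yeasts this dissimilatory route supplies NADH and removes formaldehyde that is not assimilated. Sfa1 of S. cerevisiae also acts on long-chain alcohols and on S-nitrosoglutathione.

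The libraries held 51537969 to 63183824 counts on named genes. At that depth a count of 0 allows up to 0.0443 to 0.061 CPM (counts of a gene scaled to a common, TMM-adjusted library total), for counting error only. PEX31, labelled as deleted, had 0 or 1 count per library, whereas PEX32, also labelled as deleted, had between 167 and 279 in every library. The strains differed at most genes. The edgeR quasi-likelihood test called 5603 of 6129 tested genes at an adjusted p under 0.05, which is 91.4%, with 2787 (45.5%) called higher and 2816 (45.9%) called lower in CX01F. Scaled by library size only, 2221 were higher and 3407 lower. A call is therefore close to the background here, and the size and direction of a change carry more than the call.

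The start regions of the genes are shown because the genes changed in different directions. Each is the 250 bases before the start codon and the first 50 coding bases in RefSeq R64, the S288C reference, with the start codon and any TATAAA or AGGGG on either strand in capitals. The windows are chrIV:159354-159653 on the plus strand for SFA1, chrX:313866-314165 on the minus strand for YJL068C and chrXV:1072874-1073173 on the minus strand for FDH1. The authors' build and the strains' own sequence are not given in the sources used here, so these are reference sequences.
SFA1: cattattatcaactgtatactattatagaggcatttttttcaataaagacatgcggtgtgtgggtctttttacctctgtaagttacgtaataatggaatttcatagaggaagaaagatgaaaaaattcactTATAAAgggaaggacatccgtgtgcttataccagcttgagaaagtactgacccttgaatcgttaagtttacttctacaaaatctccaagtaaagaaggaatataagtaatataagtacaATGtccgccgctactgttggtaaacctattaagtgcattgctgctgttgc
YJL068C: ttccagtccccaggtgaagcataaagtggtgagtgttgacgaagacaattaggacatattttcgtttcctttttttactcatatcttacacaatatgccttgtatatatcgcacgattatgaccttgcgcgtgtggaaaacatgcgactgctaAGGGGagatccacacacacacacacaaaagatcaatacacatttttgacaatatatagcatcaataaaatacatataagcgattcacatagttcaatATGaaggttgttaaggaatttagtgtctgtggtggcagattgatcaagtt
FDH1: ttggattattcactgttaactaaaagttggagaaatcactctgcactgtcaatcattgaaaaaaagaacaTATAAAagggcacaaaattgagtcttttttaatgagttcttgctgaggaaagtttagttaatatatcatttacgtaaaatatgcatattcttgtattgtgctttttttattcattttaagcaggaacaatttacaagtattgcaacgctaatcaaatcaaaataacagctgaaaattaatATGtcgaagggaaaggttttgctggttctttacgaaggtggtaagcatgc

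TATAAA, the TATA sequence, matched 1 time each in SFA1 and FDH1 and 0 times in YJL068C, and 45.2% of 6001 protein-coding windows of the same length hold it on either strand. AGGGG, the stress response element of Msn2 and Msn4, matched 1 time in YJL068C and 0 times in the other genes, and 21.6% of windows hold it. TTACTAA, the only form of a Yap1 element searched for, matched in none of the 3 windows, and 7.45% hold it. Other forms of the element were not searched for, and the windows may hold them. A match is a description of the letters and no evidence of binding.

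The genes differ in how far a read can be assigned to them. In SFA1 and YJL068C all stretches of 50, 100 and 150 bases (100%) occur at 1 place in the R64 genome. In FDH1 the shares were 15.8%, 26.3% and 36.6%, so most reads from it could also be placed elsewhere. How long the reads were, and how such reads were counted, is not given, and the FDH1 values are uncertain to that extent. None of the 3 genes overlaps another gene in R64.

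Formaldehyde dehydrogenase RNA fell in the evolved strain. SFA1 stood at 383, 379 and 368 CPM in CX01 replicates 1 to 3 and at 200, 197 and 195 CPM in CX01F, on TMM-scaled library sizes. Every CX01F library was below every CX01 library, as it is in one direction or the other for 91.9% of tested genes. The means were 377 ± 7.35 and 197 ± 2.08 CPM (SD, n = 3), a 1.91-fold lower level in CX01F (log2 fold change -0.93, SE 0.026, edgeR adjusted p = 7.8e-14). Of the 6129 tested genes 986 (16.1%) had a lower log2 fold change. A called fall of at least 2-fold was reached by 14.6% of genes, and the side of 2-fold on which SFA1 lies rests on the scaling: it was at -1.14 with library size only and at -1.05 with TMM factors from genes off chromosomes XI and XV.

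The hydrolase step moved the other way. YJL068C stood at 90.9, 91.4 and 91.2 CPM in CX01 and at 160, 159 and 156 CPM in CX01F. The groups did not overlap, and the CX01 libraries lay within less than 1 CPM of each other, with an SD of 0.224 CPM. The mean rose 1.74-fold from 91.2 ± 0.224 to 158 ± 1.94 CPM (SD, n = 3, log2 fold change 0.80, SE 0.025, edgeR adjusted p = 3.01e-13). Of the tested genes 1236 (20.2%) had a higher log2 fold change.

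Of the 3 genes FDH1 fell most, and the limit on assigning its reads applies to all of its values. FDH1 stood at 199, 193 and 200 CPM in CX01 and at 44.3, 46.5 and 44.9 CPM in CX01F, with no overlap. This is a 4.36-fold fall, from 197 ± 3.6 to 45.2 ± 1.14 CPM (SD, n = 3, log2 fold change -2.13, SE 0.0295, edgeR adjusted p = 4.12e-17). It fell by at least 4-fold, as 3.61% of tested genes did with a call. Only 186 tested genes (3.03%) had a lower log2 fold change than FDH1.

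**Figure D1:**
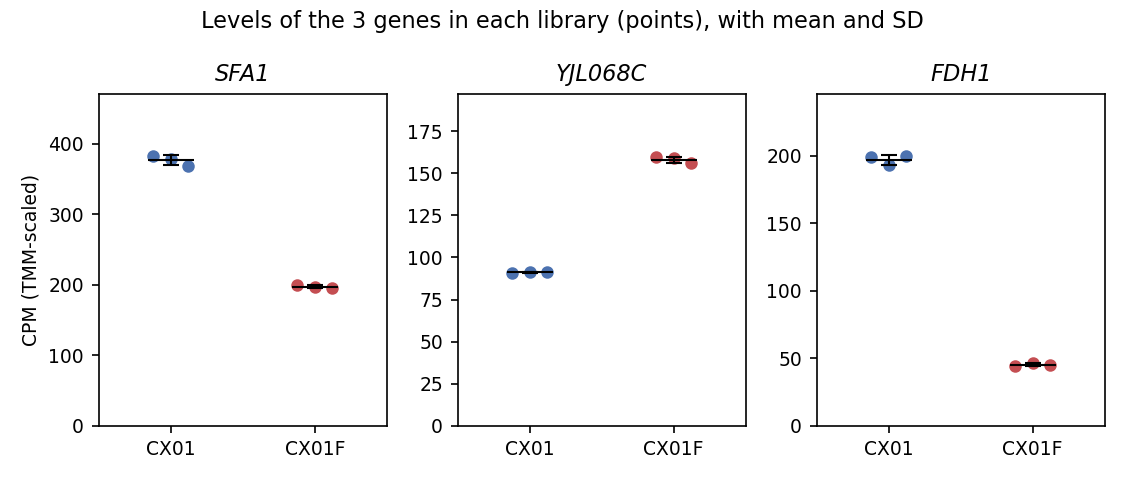
TMM-scaled CPM of SFA1, YJL068C and FDH1 (linear axes from 0, a separate scale for each gene) in the 3 libraries of CX01 and the 3 of CX01F. Points are libraries, ordered by replicate number, and the bars give the mean and SD; SFA1 and FDH1 are lower in all CX01F libraries and YJL068C is higher.

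**Figure D2:**
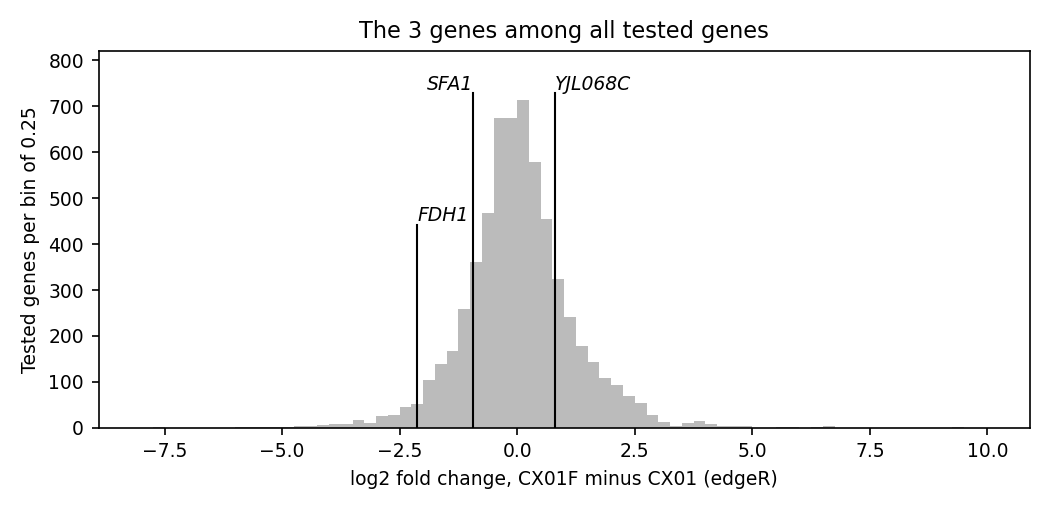
Histogram of edgeR log2 fold changes (CX01F minus CX01) of the 6129 tested genes in bins of 0.25, with vertical lines at the 3 genes. FDH1 (-2.13) lies in the lower tail, SFA1 (-0.93) on the lower flank and YJL068C (0.80) on the upper flank.

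FDH1 lies on a chromosome that was lower as a whole. The median log2 fold change of the 541 tested genes of chromosome XV was -0.87, and the chromosomes of the other members had medians of 0.02 (IV) and 0.10 (X). Relative to its chromosome FDH1 was at -1.26, with 43 of the 541 genes lower. SFA1 was at -0.95 relative to chromosome IV and YJL068C at 0.70 relative to chromosome X. The part of the chromosome-wide shift in the fall of FDH1 was not tested.

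Levels along the route are compared per kb of R64 coding length, which is 1161 bases for SFA1, 900 for YJL068C and 1131 for FDH1. In CX01 the SFA1 level was highest at 330, 326 and 317 CPM per kb, followed by FDH1 at 176, 171 and 177 and by YJL068C at 101, 102 and 101. In CX01F the order was YJL068C at 178, 177 and 174 CPM per kb, SFA1 at 172, 169 and 168, and FDH1 at 39.1, 41.1 and 39.7. The libraries of neighbours in these orders did not overlap in either strain, which reflects the spread between replicates only. The place of FDH1 is uncertain. Only 15.8% to 36.6% of its stretches occur once in R64, and how the other reads were counted is not given. YJL068C (176 ± 2.15 CPM per kb, SD, n = 3) and SFA1 (170 ± 1.79) were close in CX01F. With library size only in place of TMM they were at 164 and 158, and a change of scaling cannot alter the order within a library. The order of this pair rests on the division by length, since SFA1 had more counts in each CX01F library.

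Ratios within a library do not depend on the scaling between libraries. SFA1 had 4.21, 4.14 and 4.04 times the counts of YJL068C in CX01, and 1.25, 1.24 and 1.25 times in CX01F. The log2 ratio was 2.05 ± 0.0295 in CX01 and 0.32 ± 0.00784 in CX01F (SD, n = 3), a difference of -1.73. FDH1 had 0.52, 0.51 and 0.543 times the counts of SFA1 in CX01, and 0.222, 0.236 and 0.23 times in CX01F. That log2 ratio fell by 1.19, from -0.93 ± 0.0453 to -2.12 ± 0.0457 (SD, n = 3). For both ratios the strains did not overlap, and the exact two-sided permutation test gave p = 0.1, the smallest possible with 3 against 3. Of single tested genes 91.9% did not overlap either, and the share among ratios of other genes was not taken. The 3 steps differed in the direction or size of their change: up at the hydrolase, down at the formaldehyde dehydrogenase, and further down at FDH1. Taken relative to their chromosome medians, SFA1 (-0.95) and FDH1 (-1.26) lay closer together. A ratio within a library removes neither the chromosome XV shift nor the uncertain assignment of FDH1 reads. The part of each in the further fall of FDH1 was not tested.

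**Figure D3:**
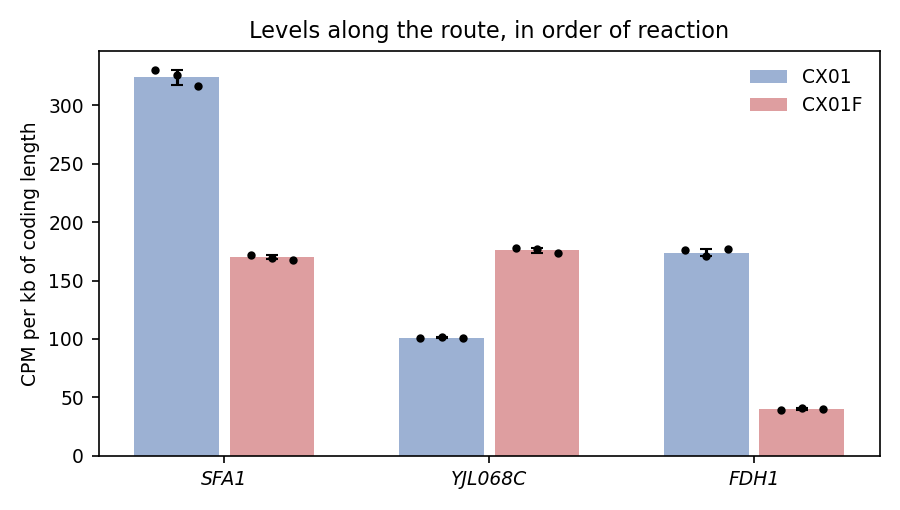
CPM per kb of coding length (linear axis from 0) for SFA1, YJL068C and FDH1, in order of reaction, in CX01 (blue) and CX01F (red). Bars are means over 3 libraries, error bars are SD and points are libraries. SFA1 goes from 324 to 170, YJL068C from 101 to 176 and FDH1 from 174 to 40. The FDH1 level is uncertain, since most of its sequence is not unique in R64.

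FDH1 lies near the end of chromosome XV, with 7 listed genes beyond it, and its neighbours did not move together. On the outer side YOR389W rose from 104 ± 1.95 to 176 ± 6.06 CPM (SD, n = 3, log2 fold change 0.76, edgeR adjusted p = 5.06e-12), and FEX1, a fluoride exporter gene, fell from 37.6 ± 0.806 to 12.9 ± 0.861 CPM (-1.54, edgeR adjusted p = 5.05e-13). FEX1 has a near-identical copy, FEX2 (99.3% of bases). YOR389W, of 1875 bases, has a shorter copy, YPL277C, of 1464 bases. Their alignment held 1420 identical bases, which is 97.0% of the shorter gene. The values of YOR389W and FEX1 are therefore uncertain. On the inner side YOR387C (-0.42) and PHR1, a DNA photolyase gene (-0.53), were lower.

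The neighbours of SFA1 were UGX2 (-1.19) and UGA3 (0.31) on one side and NRP1 (0.79) and FAP7 (0.60) on the other. All of them were called, as were 91.4% of all tested genes. The neighbours of YJL068C were UTP18 (0.68), YJL070C (-0.02, not called, edgeR adjusted p = 0.505), MPM1 (0.15) and DLS1 (0.36). MPM1 turned to -0.06 (adjusted p = 0.0424) when edgeR used library size only. SFA1 has 75 listed genes between it and the nearer chromosome end, and YJL068C has 144.

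**Figure D4:**
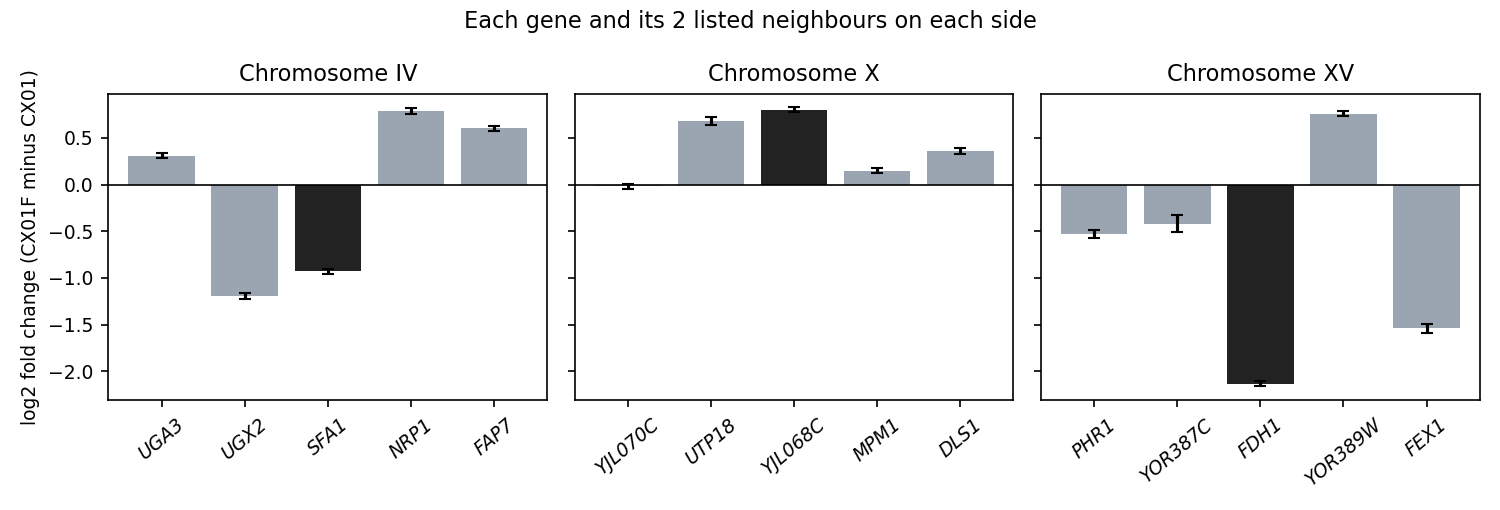
Log2 fold change (CX01F minus CX01, linear axis) of SFA1, YJL068C and FDH1 (black) and the nearest 2 listed genes on each side (grey), in order of position and not to scale; error bars are the edgeR SE. FDH1 (-2.13) is the lowest of its panel and stands beside YOR389W (0.76), while YJL068C (0.80) is the highest of its panel.

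The cofactor of the route is glutathione. GSH1, whose product makes gamma-glutamylcysteine, the first step of its synthesis, rose 12.7-fold, from 424 ± 30.7 to 5401 ± 176 CPM (SD, n = 3, log2 fold change 3.67, SE 0.0506, edgeR adjusted p = 3.98e-17). GLR1, glutathione reductase, rose by a log2 of 0.43. GSH2, glutathione synthetase, is on chromosome XV and was at 0.08. The sign of GSH2 rests on the scaling, at -0.13 with library size only and -0.03 with TMM factors taken from genes off chromosomes XI and XV. The glyoxalase route removes methylglyoxal through glutathione by a like pair of steps. Its 3 genes were called lower, with a median of -0.76, where 45.9% of all tested genes were lower. GLO1, the lyase, was at -0.76, GLO2, the cytosolic hydrolase, at -0.13, which is 1.09-fold, and GLO4, the mitochondrial hydrolase on chromosome XV, at -1.62.

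Formate can also enter folate as a carbon donor. Of the 13 folate one-carbon genes, 11 were higher, 1 lower and 1 not called, with a median log2 fold change of 1.03, where 45.5% of all tested genes were higher and their median was 0.00. MIS1, the mitochondrial C1-tetrahydrofolate synthase that ligates formate, rose 3.45-fold from 51.1 ± 1.73 to 176 ± 1.57 CPM (log2 fold change 1.79), and ADE3, its cytoplasmic counterpart, rose 1.84-fold from 305 ± 14.1 to 562 ± 11.7 CPM (0.88). The glycine cleavage genes GCV1, GCV2 and GCV3 were at 2.81, 2.69 and 1.98, and the serine hydroxymethyltransferase genes SHM2 and SHM1 at 2.34 and 1.03. DFR1, dihydrofolate reductase, on chromosome XV, fell, at -1.26. FAU1, a formyltetrahydrofolate cyclo-ligase, was at 0.09 (not called), at -0.12 with library size only, where edgeR called it lower (adjusted p = 0.0159), and at -0.03 with TMM factors off chromosomes XI and XV. With library size only 10 genes of the list were higher and 2 lower.

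Of 6 genes for enzymes that release formate, 5 were higher and 1 lower, with a median of 0.68, beside 45.5% higher and 45.9% lower among all tested genes. Against a 1.5-fold change 3 were higher and 0 lower, beside 1472 higher and 1414 lower among all 6129 tested genes. ERG11, the lanosterol demethylase, rose from 733 ± 12 to 1447 ± 11.3 CPM (log2 fold change 0.98), and ADI1, the acireductone dioxygenase, rose by 1.09. FOL2 and RIB3, of folate and riboflavin synthesis, were at 0.88 and 0.49, and RIB1, a GTP cyclohydrolase of riboflavin synthesis, fell by 0.45. BNA7, a formylkynurenine formamidase, was at 0.17 and turned to -0.04 with library size only.

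The protein relatives of Sfa1 and Fdh1 showed no common direction. Among all 6129 tested genes, the background for both lists, 45.5% were higher and 45.9% lower. Against a 1.5-fold change 1472 of all tested genes were higher and 1414 lower. Of 10 tested medium-chain alcohol dehydrogenase genes related to SFA1, 4 were higher, 4 lower and 2 not called, with a median of 0.00, and against a 1.5-fold change 3 were higher and 1 lower. ADH6, which acts on long-chain and aromatic aldehydes with NADPH, rose 102-fold from 30.3 ± 4.71 to 3079 ± 42.1 CPM (log2 fold change 6.67), and ADH2 and ADH3 rose by 1.62 and 1.54. BDH2, ADH5, ADH1 and BDH1 fell, at -1.20, -0.58, -0.41 and -0.17. Of these ADH1 is on chromosome XV, whose median was -0.87. Of 5 genes of the 2-hydroxyacid dehydrogenase family, to which formate dehydrogenases belong, 3 were higher and 1 lower, with a median of 0.38, and against a 1.5-fold change 1 was higher and 1 lower. SER33, a phosphoglycerate dehydrogenase of serine synthesis, was at 1.16 and its copy SER3 at 0.38, GOR1, glyoxylate reductase, at 0.60, and YPL113C at -1.10.

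Transketolases and dihydroxyacetone kinases take part in formaldehyde assimilation in methylotrophic yeasts. Of the 4 S. cerevisiae genes for these activities 1 was higher and 3 lower, with a median of -1.74, beside 45.5% and 45.9% of all tested genes. TKL1 rose 7.96-fold, from 106 ± 2.82 to 846 ± 9.39 CPM (log2 fold change 2.99), and TKL2 was 14.5-fold lower, at 27.7 ± 0.457 against 401 ± 13.6 CPM (-3.86). DAK1 and DAK2 fell, at -1.79 and -1.68. The source label of both strains lists P. pDAK, and whether its reads were counted in these rows was not tested.

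**Figure D5:**
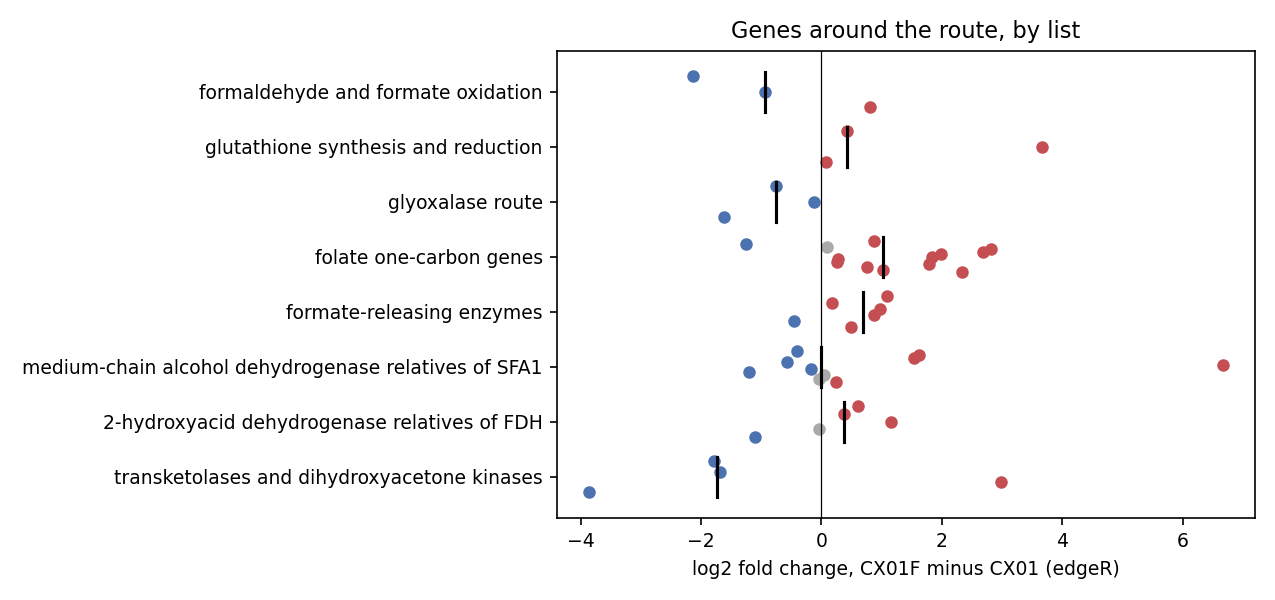
Log2 fold change (CX01F minus CX01, linear axis) of each tested gene in the 7 lists and of the 3 genes of the route, with genes called higher in red, called lower in blue and not called in grey; vertical bars are list medians. SFA1 and FDH1 lie below 0 and YJL068C above it, and the folate one-carbon list has 11 called above 0 and 1 below.

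The genes whose profiles lay nearest to each member were found by the distance between log2 CPM values, centred on the gene's mean over the 6 libraries, among the 5492 tested genes whose mean reached 10 CPM. For SFA1 these were SOG2, PRP46 and APL2 (distances 0.0317, 0.0355 and 0.0364). For YJL068C they were CPR8, AGP3 and PDB1 (0.0324, 0.0326 and 0.0404). FDH1 lay nearest to MBF1, RTG1 and FMP52 (0.0883, 0.0913 and 0.0977), of which MBF1 and RTG1 are also on chromosome XV. Of those nearest to SFA1, SOG2 is on chromosome XV and APL2 on chromosome XI, the chromosomes with the lowest medians (-0.87 and -0.82), while SFA1 is on IV.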

How the data were processed

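The authors deposited whole-number read counts per gene for 6 libraries, not normalized. Tools listed, per the submitters' processing notes and without their roles, are featureCounts, Subread 1.4.6, TopHat2 2.0.12 and Cufflinks. The genome build, annotation, strand setting, read length and treatment of multi-mapped reads are not given in the sources used here. Columns were matched to samples by title. A row without a gene name (0.00877% to 0.044% of counts) entered neither library sizes nor tests.

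Counts were analysed with edgeR 4.0.16 in R 4.3.3: filterByExpr (minimum count 10, minimum total 15), TMM scaling, glmQLFit and glmQLFTest on strain alone, leaving 4 residual degrees of freedom. Tests were two-sided and adjusted by Benjamini-Hochberg over the 6129 tested genes, with a threshold of 0.05. SE is the size of the log2 change over the root of F, and CPM uses TMM-scaled totals. The procedure was also run on simulated data in which few genes changed. That run does not cover the case here, where most genes were called. Ratios were compared by exact permutation over libraries. DESeq2 1.42.0, limma 3.58.1 (voom), glmTreat and other scalings, filters and left-out replicates were the alternatives. The replicates are called biological in the labels, which give no batch or date, so strain and handling cannot be told apart.

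Gene names were matched to RefSeq R64 by symbol, systematic name or unambiguous synonym (6083 of 6400). Sequences, lengths and gene order are those of R64, and the printed coordinates locate R64 sequence only. The genes and the 7 lists beside them were chosen with earlier results of these data known. Another gene of the route, and a list tied to it, are not reported here. The genes named are the route's, these lists, the 2 nearest listed genes on each side of each route gene, the 3 nearest profiles of each (distance on log2 of CPM plus 0.5) and the labelled deletions.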

Additional observations from a re-analysis of the deposited data

How the results depend on the processing

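The direction and call of SFA1, YJL068C and FDH1 held under every tested alternative run. Leaving out 1 library at a time gave log2 fold changes of -0.95 to -0.92 for SFA1, 0.79 to 0.81 for YJL068C and -2.14 to -2.11 for FDH1. Called genes ranged from 5501 to 5617, and the SFA1 to YJL068C and FDH1 to SFA1 log2 ratio differences from -1.75 to -1.72 and from -1.21 to -1.17. Library size only shifted all log2 fold changes by a median of -0.207 (2221 genes higher, 3407 lower), with SFA1 at -1.14, YJL068C at 0.59 and FDH1 at -2.33. TMM factors from genes off chromosomes XI and XV shifted them by -0.113 (2470 higher, 3138 lower), with SFA1 at -1.05. Without a chromosome's median, a value with no test, FDH1 was at -1.26 and YJL068C at 0.70.

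Requiring more than a 1.5-fold change (glmTreat) left 2886 genes, 1472 higher and 1414 lower, SFA1, YJL068C and FDH1 among them. With library size only, levels per kb in CX01 and CX01F were 349 and 158 for SFA1, 109 and 164 for YJL068C and 188 and 37.2 for FDH1. Of 208 list counts under the alternatives 199 stayed within 1.5 times. The other 9 were, under glmTreat, glutathione genes higher (3 to 1), formate-releasing genes higher (5 to 3) and lower (1 to 0), alcohol dehydrogenase relatives lower (4 to 1) and 2-hydroxyacid relatives higher (3 to 1), and, with library size only, glutathione (0 to 1), folate (1 to 2) and 2-hydroxyacid genes lower (1 to 2), the last also with TMM factors off chromosomes XI and XV.

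With a replicate block 5619 genes were called and SFA1 was at -0.93, YJL068C at 0.80 and FDH1 at -2.13. Same-numbered deviations correlated across genes at -0.00975, 0.153 and 0.0205, so the numbers were not taken as pairs. Depth does not limit these genes: the lowest count of any was 2285, for FDH1.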
